A study of Mus musculus with 9 samples.

Results

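A set of 10 genes that mark spermatogonial stem cells were followed in female germ cells of the mouse. They are Gfra1, Ret, Zbtb16, Id4, Etv5, Bcl6b, Nanos2, Uchl1, Thy1 and Lhx1, chosen by name as markers known from the male germline, and all 10 were found among the 34617 gene symbols of the expression tables. The 4 cell types were E12.5 PGCs (primordial germ cells of embryonic day 12.5, 3 libraries), FGSCs (female germline stem cells, 2 libraries), GV oocytes (2 libraries) and MII oocytes (2 libraries). The labels give the C57BL/6 strain, female sex and passage 0 for every sample. By the study's methods, PGCs came from XX genital ridges, and FGSCs were isolated from postnatal ovaries at 3 to 5 days of age. Both were sorted as GFP-positive cells of Mvh-cre crossed with ROSA mT/mG reporter mice, in which a Cre under the promoter of the germ cell gene Mvh (Ddx4) switches on GFP, so that cells whose ancestors once used that promoter are also labelled. The methods describe fully grown oocytes of 6-week-old C57BL/6 females primed with PMSG, which were taken here as the GV oocytes of the labels, and do not describe how MII oocytes were collected. No agent was given to the other cells by the sources used here.

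Each cell type has a single pooled FPKM value per gene (read fragments scaled to transcript length and to mapped depth, a level per length). The tables used here hold no value per library, so no difference below was set against the spread between replicates, and no p-value is given. A gene is called higher or lower where FPKM + 1 differed by 2-fold or more (1 on the log2 scale) and FPKM reached 1 on one side of the comparison or both. Embryonic globin genes, which primitive red cells use before birth, were high in FGSCs as well as in E12.5 PGCs (Hbb-y 3273 against 3378 FPKM, Hba-x 1599 against 10452 FPKM and Hbb-bh1 329 against 504 FPKM). The methods give postnatal ovaries as the source of FGSCs, and where these globin transcripts came from was not tested. Their part in the marker values was not tested either. With pooled values no FGSC result could be given without a library. In bulk libraries, fewer cells of a type and less RNA per cell cannot be told apart. The cDNA was primed with oligo(dT), so a change in poly(A) tail and a change in mRNA amount cannot be told apart either.

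In the testis, Sertoli and other somatic cells secrete GDNF, which binds the co-receptor GFRA1 on undifferentiated spermatogonia and activates the receptor tyrosine kinase RET. Signalling through SRC family kinases and AKT then raises transcription factor genes such as Etv5, Bcl6b, Lhx1 and Id4, and the RNA-binding protein NANOS2 and the repressor ZBTB16 (PLZF) hold the cells in the undifferentiated state. THY1 and UCHL1 (PGP9.5) are used to enrich or stain these cells. Fully grown oocytes are transcriptionally silent, and during their maturation to MII the poly(A) tails of stored mRNAs are lengthened or shortened.

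The promoter letters of Etv5, Nanos2 and Uchl1 are shown because these 3 of the 10 genes differed most between GV oocytes and FGSCs. They are the 250 bases before the RefSeq start in GRCm38.p6, at chr16:22439571-22439820 on the minus strand for Etv5 (the window of its other start in the table, at chr16:22438369-22438618, is not shown), chr7:18987274-18987523 on the plus strand for Nanos2 and chr5:66675871-66676120 on the plus strand for Uchl1. Capitals mark matches, on either strand, to the letters GGGCGG (named GC box), CCAAT (bound by NF-Y), CANNTG (named E-box) or TAATTG (the homeodomain core).
Etv5: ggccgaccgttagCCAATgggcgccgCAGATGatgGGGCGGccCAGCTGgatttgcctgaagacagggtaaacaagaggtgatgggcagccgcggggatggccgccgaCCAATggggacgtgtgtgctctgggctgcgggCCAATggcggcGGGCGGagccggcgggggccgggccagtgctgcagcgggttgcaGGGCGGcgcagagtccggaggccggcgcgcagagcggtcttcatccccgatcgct
Nanos2: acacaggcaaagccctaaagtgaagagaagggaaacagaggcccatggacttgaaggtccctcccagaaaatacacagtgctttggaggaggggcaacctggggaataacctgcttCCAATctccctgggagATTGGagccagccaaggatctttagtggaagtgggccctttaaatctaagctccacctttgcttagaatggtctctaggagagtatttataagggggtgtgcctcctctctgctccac
Uchl1: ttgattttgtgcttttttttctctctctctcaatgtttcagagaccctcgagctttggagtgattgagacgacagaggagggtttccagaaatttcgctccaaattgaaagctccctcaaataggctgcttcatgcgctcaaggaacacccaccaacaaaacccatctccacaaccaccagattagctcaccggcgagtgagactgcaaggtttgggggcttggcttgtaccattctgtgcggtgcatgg
The Etv5 window held 3 GC boxes, 3 CCAAT boxes and 2 E-boxes, with 71.2% G or C, and its other window held 1 CCAAT box, no other match and 62.0% G or C. Nanos2 had 2 CCAAT boxes and 50.8% G or C, and Uchl1 had no match to any of the 4 motifs and 48.8% G or C. Of 32851 windows of this length before all RefSeq starts, 32.7% held a GC box, 33.8% a CCAAT box, 66.2% an E-box and 7.17% the homeodomain core. Windows were found for 6 of the 10 genes (Etv5, Gfra1, Id4, Lhx1, Nanos2 and Uchl1).

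Sites of 30 bases near the transcript ends are shown for the 4 genes that reached 10 FPKM, because priming took place at the poly(A) tail. They come from the longest protein-coding transcript of GENCODE vM21, and capitals mark the polyadenylation hexamer AATAAA, or, in the last line, the U-rich element TTTTAT known from frog oocytes as a cytoplasmic polyadenylation element.
Etv5: tgtactgtgtacAATAAAgaagattgcttt
Gfra1: ttccaaacctcaAATAAAaaaaatatagac
Nanos2: tgtctgctgctgAATAAAgcgttgttagtc
Uchl1: cttaagaggaagAATAAAactttgctggtg
Nanos2 element: atgccagttgggTTTTATgctatctaggag
The hexamer ended 21 bases before the transcript end in Etv5 and Uchl1, 18 in Gfra1 and 15 in Nanos2. Among all 21832 genes, 61.6% held AATAAA and 12.9% held TTTTAT in the last 100 bases. Nanos2 was the one gene of the 10 with TTTTAT there, 80 bases from the end, and the single gene with no AATAAA was Zbtb16. A match is a description of letters and not of a used site.

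Most of the 10 markers were low in every cell type. In E12.5 PGCs 4 of them reached 1 FPKM, and in FGSCs, GV oocytes and MII oocytes 3 did, where 31.2%, 34.8%, 34.4% and 33.0% of all genes did so in the same order of cell types. The median FPKM of the 10 was 0.398 in E12.5 PGCs, 0.441 in FGSCs, 0.264 in GV oocytes and 0.279 in MII oocytes. Only Gfra1, Etv5, Nanos2 and Uchl1 reached 10 FPKM anywhere. As deposited, Id4, Thy1 and Lhx1 peaked between 1 and 2 FPKM, and Ret, Zbtb16 and Bcl6b stayed under 1 FPKM throughout. The highest value was in FGSCs for 4 genes (Ret, Etv5, Bcl6b and Lhx1), in E12.5 PGCs for Id4 and Thy1, in GV oocytes for Uchl1 and in MII oocytes for Gfra1, Zbtb16 and Nanos2.

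**Figure D1:**
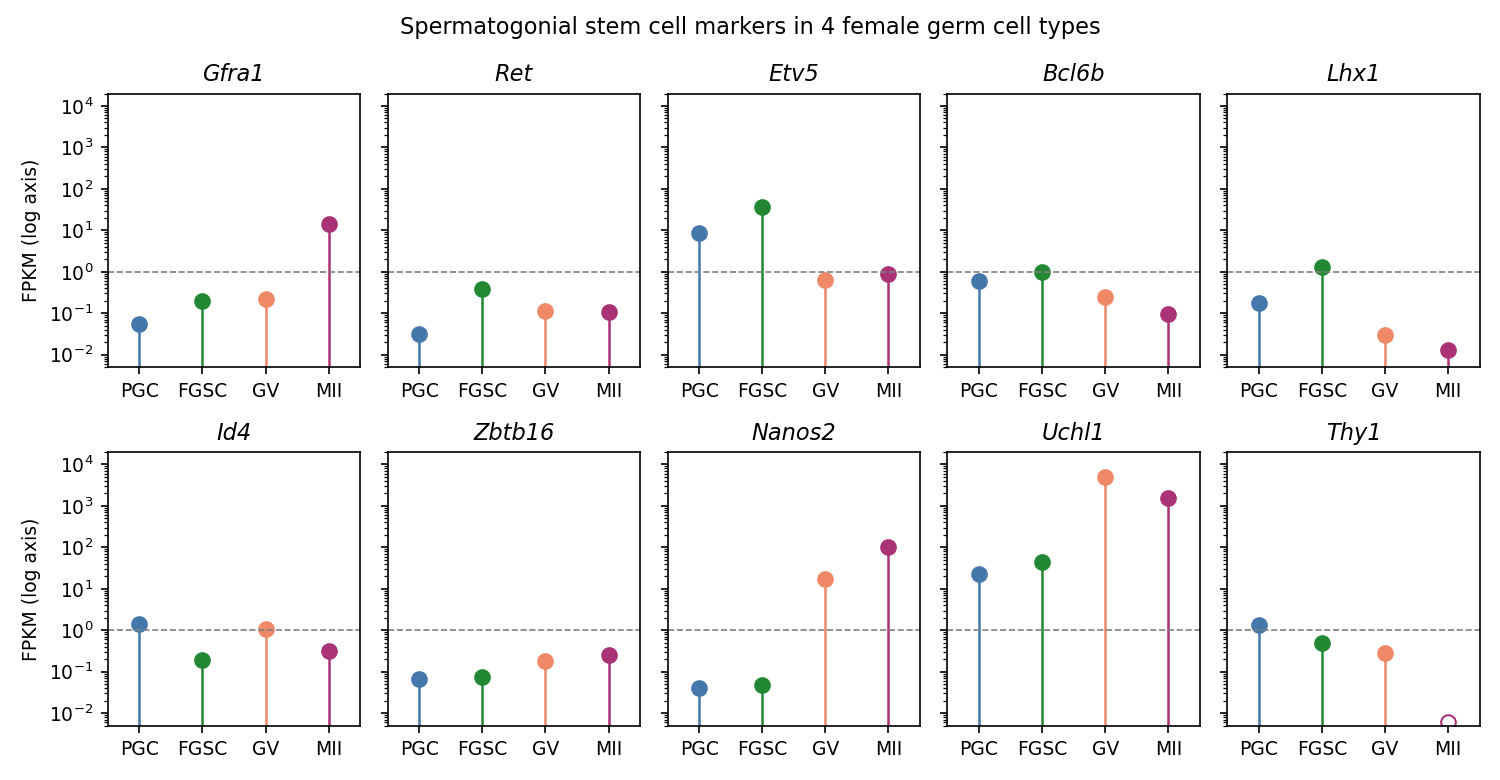
FPKM of the 10 spermatogonial stem cell markers (log axis) in the 4 cell types, 1 pooled value per point, with a dashed line at 1 FPKM and an open circle for the value listed at 0. Etv5 peaks in FGSCs at 37.4 FPKM, Uchl1 in GV oocytes at 5025 FPKM, and Nanos2 and Gfra1 in MII oocytes at 102 and 13.8 FPKM.

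The GDNF receptor complex was at low levels in FGSCs. Gfra1, the GPI-anchored co-receptor that binds GDNF (mm9 chr19:58278629-58530399), had 0.0565 FPKM in E12.5 PGCs, 0.195 FPKM in FGSCs, 0.224 FPKM in GV oocytes and 13.8 FPKM in MII oocytes. The first 3 cell types lay under 1 FPKM, and MII oocytes stood above them by 3.60 on the log2 scale when set against GV oocytes. Within MII oocytes, 69.8% of detected genes were below Gfra1, where in FGSCs 15.7% were. Ret, the signalling receptor (chr6:118101766-118147762), had 0.0310, 0.377, 0.115 and 0.106 FPKM in the same order of cell types. Its highest value was in FGSCs, and in no cell type did it reach 1 FPKM, so MII oocytes had the co-receptor transcript without a like level of Ret. The mm9 coordinates given with each marker, here and below, are the spans listed with the values. Those of Gfra1, Id4, Uchl1 and Lhx1 are each shared with another gene and need not be the bounds of the marker itself.

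Among the transcription factors, Etv5 was the most abundant in FGSCs. Etv5, an ETS factor of the PEA3 family that GDNF induces in spermatogonia (chr16:22381382-22439792), had 8.62 FPKM in E12.5 PGCs, 37.4 FPKM in FGSCs, 0.651 FPKM in GV oocytes and 0.886 FPKM in MII oocytes. FGSCs exceeded E12.5 PGCs 4.34-fold in FPKM, a difference of 2.00 on the log2(FPKM + 1) scale. GV oocytes were 57.4 times below FGSCs in FPKM, or -4.54 on the log2(FPKM + 1) scale, and MII oocytes did not differ from GV oocytes by 2-fold. Etv5 ranked 2029 of 18595 detected genes in FGSCs, above 89.1% of them, and above 29.6% of those detected in GV oocytes.

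Bcl6b, a zinc finger repressor that GDNF also induces (chr11:70037630-70043300), had 0.615 FPKM in E12.5 PGCs, 0.971 FPKM in FGSCs, 0.243 FPKM in GV oocytes and 0.0946 FPKM in MII oocytes. It was highest in FGSCs but, as deposited, under 1 FPKM everywhere (2.32 in FGSCs after rescaling to equal sums). Lhx1, a LIM homeodomain factor (chr11:84331479-84349333), had 0.181, 1.32, 0.0306 and 0.0128 FPKM in the same order, so that FGSCs alone passed 1 FPKM. The FGSC value exceeded that of E12.5 PGCs by 0.97 on the log2(FPKM + 1) scale, just short of 2-fold, and the GV oocyte value was below the FGSC value by 2-fold or more (-1.17).

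Id4, an inhibitor of basic helix-loop-helix factors that marks the most stem-like spermatogonia (chr13:48139600-48359405), had 1.44 FPKM in E12.5 PGCs, 0.188 FPKM in FGSCs, 1.09 FPKM in GV oocytes and 0.309 FPKM in MII oocytes. Unlike the other GDNF-induced genes, it was lowest in FGSCs, below E12.5 PGCs by 2-fold or more (-1.04 on the log2(FPKM + 1) scale). The GV oocyte value exceeded that of FGSCs by 0.81 on that scale, under the limit. Zbtb16, the zinc finger repressor PLZF (chr9:48462416-48644050), had 0.0664, 0.0757, 0.183 and 0.248 FPKM in the same order, all far below 1 FPKM.

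Nanos2 was low in E12.5 PGCs and FGSCs and higher in both oocyte types. This RNA-binding repressor (chr7:19572873-19574311), which in males turns fetal germ cells away from meiosis, had 0.0407 FPKM in E12.5 PGCs, 0.0480 FPKM in FGSCs, 17.2 FPKM in GV oocytes and 102 FPKM in MII oocytes. GV oocytes exceeded FGSCs by 4.12 on the log2(FPKM + 1) scale, and MII oocytes exceeded GV oocytes by 2.50, or 5.93-fold in FPKM. In MII oocytes 90.2% of detected genes were below Nanos2, and in FGSCs 5.62% were.

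Uchl1, a ubiquitin hydrolase abundant in neurons, spermatogonia and oocytes (chr5:67017734-67078470), was the most abundant of the 10 in every cell type. It had 23.1 FPKM in E12.5 PGCs, 45.4 FPKM in FGSCs, 5025 FPKM in GV oocytes and 1548 FPKM in MII oocytes. The FGSC value was 1.96-fold that of E12.5 PGCs, just short of the limit. GV oocytes exceeded FGSCs 111-fold, where Uchl1 ranked 3 among all detected genes and took 0.897% of the summed FPKM. In MII oocytes it was 3.25 times lower than in GV oocytes (-1.70 on the log2(FPKM + 1) scale) and ranked 126. Thy1, a GPI-anchored surface glycoprotein used to enrich spermatogonial stem cells and also carried by T cells and stroma (chr9:43851467-43856662), had 1.34 FPKM in E12.5 PGCs, 0.505 FPKM in FGSCs and 0.285 FPKM in GV oocytes, and was listed at 0 in MII oocytes. The FGSC value was 2.64 times lower than that of E12.5 PGCs in FPKM, and on the log2(FPKM + 1) scale, used for the calls, the difference was -0.63, under the limit. A listed 0 need not mean no transcript. Of the 3267 genes with 10 FPKM or more in the other 3 cell types, 17 were listed at 0 in MII oocytes. Whether the transcripts of those 17 were absent was not tested, and Thy1 lay far below 10 FPKM. The listed spans of Gfra1, Id4, Uchl1 and Lhx1 are each the same as that of another gene. The strand of reads was not stated to be kept, so the values of Gfra1, Id4, Uchl1 and Lhx1 are uncertain to that extent.

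For FGSCs against E12.5 PGCs, 5 of the 10 markers passed the filter of 1 FPKM, of which 1 was higher (Etv5) and 1 lower (Id4). Of 13087 genes that passed, 24.6% were higher and 21.0% lower. Under the filter were Gfra1, Ret, Zbtb16, Bcl6b and Nanos2. The median log2 ratio was 0.94 for the 5 markers that passed and 0.23 for all 10, beside -0.10 for all genes that passed. At 1 gene in each direction these counts lie near the background shares and are no result about the markers.

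For GV oocytes against FGSCs, 5 passed, with Nanos2 and Uchl1 higher and Etv5 and Lhx1 lower, where 28.1% of 14162 genes were higher and 27.9% lower. The median was 0.81 for the 5 that passed and -0.10 for all 10, beside -0.05 for all genes that passed. In the comparison of MII oocytes against GV oocytes, 4 passed, with Gfra1 and Nanos2 higher and Uchl1 lower, where 39.3% of 13803 genes were higher and 30.6% lower. The median was 0.91 for the 4 that passed and -0.02 for all 10, beside 0.36 for all genes that passed. A median over so few genes that passed describes those genes alone. FGSCs and GV oocytes each stand in 2 of these comparisons, so the 3 are not independent.

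**Figure D2:**
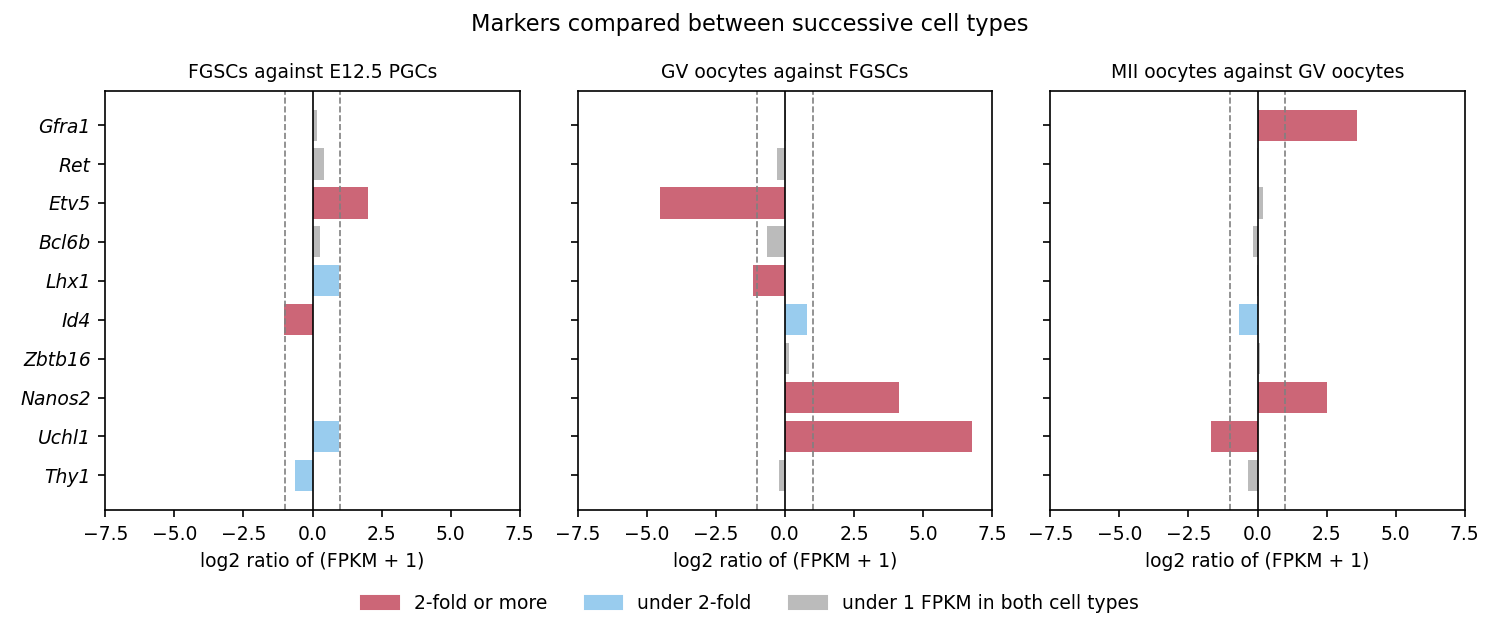
Log2 ratio of (FPKM + 1) of each marker for FGSCs against E12.5 PGCs, GV oocytes against FGSCs and MII oocytes against GV oocytes, with dashed lines at 2-fold and grey bars for genes under 1 FPKM in both cell types. Etv5 is higher in FGSCs by 2.00 and lower in GV oocytes by -4.54, Uchl1 is higher in GV oocytes by 6.76, and Gfra1 is higher in MII oocytes by 3.60.

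The deposited FPKM summed to different totals, 688252 in E12.5 PGCs, 417647 in FGSCs, 560470 in GV oocytes and 1231160 in MII oocytes, so levels depend on the scaling. After rescaling to equal sums, 38.9% of genes were higher and 10.1% lower in FGSCs against E12.5 PGCs, 24.7% and 38.3% in GV oocytes against FGSCs, and 24.9% and 44.0% in MII oocytes against GV oocytes. The median log2 ratio of all genes then became 0.56, -0.44 and -0.60 in these comparisons. On that scale Uchl1 was higher in FGSCs than in E12.5 PGCs by 1.66 and Lhx1 by 1.72, both past 2-fold, and both also passed it when scaled by the median ratio (1.14 and 1.09). Etv5 on the equal-sum scale was 89.5 in FGSCs against 12.5 in E12.5 PGCs, and Nanos2 was 83.0 in MII oocytes against 30.8 in GV oocytes. On it 8 of the 10 markers reached 1 in some cell type, where 7 did as deposited. Bcl6b (2.32) and Thy1 (1.21) then reached 1 in FGSCs, and Etv5 (1.16) in GV oocytes. Counts of markers at 1 FPKM per cell type therefore depend on the scaling. The share of all genes at 1 on that scale was not computed. No marker that was called turned its direction under the 3 rescalings, and Id4 in FGSCs against E12.5 PGCs came to lie just inside the limit when scaled by the median ratio.

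Among the ligands of the GDNF family, Gdnf had 0.205 FPKM in GV oocytes and was listed at 0 in the other 3 cell types. Nrtn, the ligand of GFRA2, had 15.9 FPKM in E12.5 PGCs, 20.7 FPKM in FGSCs and 50.7 FPKM in GV oocytes, and was listed at 0 in MII oocytes. Artn, the ligand of GFRA3, stayed under 1 FPKM (0, 0.159, 0.947 and 0.115 FPKM), and Pspn, the ligand of GFRA4, was listed at 0 in all 4 cell types. The one ligand at more than 1 FPKM was therefore Nrtn.

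Other co-receptors were more abundant in FGSCs than Gfra1. Gfra4, the persephin co-receptor, had 0.414 FPKM in E12.5 PGCs, 10.2 FPKM in FGSCs, 134 FPKM in GV oocytes and 344 FPKM in MII oocytes. Gfra3, the artemin co-receptor, had 0.0332, 8.73, 0.308 and 1.92 FPKM in that order, with its peak in FGSCs. Gfra2 ranged from 0.202 FPKM in E12.5 PGCs to 1.03 FPKM in MII oocytes, and Gfral, the receptor of GDF15, was listed at 0 except in MII oocytes (0.226 FPKM). Ncam1, an alternative GDNF receptor, had 24.5, 7.72, 0.340 and 0.0535 FPKM across the 4 cell types.

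In FGSCs against E12.5 PGCs, 4 of the 11 GDNF ligands and receptors passed the filter, with Gfra3 (3.24 on the log2(FPKM + 1) scale) and Gfra4 (2.99) higher and Ncam1 lower (-1.55, and -0.91 after rescaling to equal sums), where 24.6% of all genes were higher and 21.0% lower. After rescaling 3 were higher, with Nrtn added, and 0 lower, where 38.9% and 10.1% of all genes were. In GV oocytes against FGSCs, 4 passed, with Nrtn (1.25, and 0.85 after rescaling) and Gfra4 (3.59) higher and Gfra3 (-2.90) and Ncam1 (-2.70) lower, where 28.1% of all genes were higher and 27.9% lower. In MII oocytes against GV oocytes, 5 passed, with Gfra1 (3.60), Gfra3 (1.16) and Gfra4 (1.35) higher and Nrtn lower (-5.69), where 39.3% of all genes were higher and 30.6% lower. The rises of Gfra3 and Gfra4 in MII oocytes fell under 2-fold after rescaling (0.72 and 0.22), where Gfra1 did not.

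Of 21 genes that carry the GDNF signal inside the cell, 20 were matched. All 20 passed the filter in FGSCs against E12.5 PGCs, with 5 higher (Shc1, Gab2, Akt2, Map2k2 and Mapk3) and 0 lower. The 5 of 20 were near the 24.6% of all genes that were higher, against 21.0% lower, and the median log2 ratio of the 20 was 0.42, beside -0.10 for all genes. After rescaling to equal sums 11 of the 20 were higher, where 38.9% of all genes were. Mapk3, the kinase ERK1, had 3.04 FPKM in E12.5 PGCs, 30.8 FPKM in FGSCs, 128 FPKM in GV oocytes and 211 FPKM in MII oocytes. Map2k2, the ERK kinase MEK2, had 35.9, 84.8, 103 and 9.52 FPKM, Map2k1 (MEK1) had 28.0, 32.8, 53.6 and 468 FPKM, and the SRC family kinase Fyn had 11.1, 6.76, 30.4 and 102 FPKM in that order. In GV oocytes against FGSCs 3 of 20 were higher and 4 lower (28.1% and 27.9% of all genes). In MII oocytes against GV oocytes 8 of 18 were higher and 3 lower (39.3% and 30.6% of all genes), and this balance turned to 5 higher and 6 lower after rescaling to equal sums (24.9% and 44.0%). The relays thus had transcripts in FGSCs where Gfra1 and Ret were under 1 FPKM.

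Of 14 genes for FGF and other self-renewal signals, 10 passed in FGSCs against E12.5 PGCs, with 4 higher (Fgfr1, Csf1, Cxcl12 and Wnt6) and 2 lower (Fgf9, and Igf1 at -1.12, or -0.52 after rescaling to equal sums), where 24.6% of all genes were higher and 21.0% lower. Wnt6, a WNT ligand, had 11.3, 37.6, 1.37 and 0 FPKM in the order of cell types above. Fgf8, an oocyte growth factor, had 0.596, 0.290, 187 and 25.3 FPKM, Fgf9 had 4.30, 0.933, 4.91 and 47.4 FPKM, and the receptor gene Fgfr2 had 8.35, 10.7, 2.07 and 51.5 FPKM. In GV oocytes against FGSCs 2 of 11 were higher and 6 lower, against 28.1% and 27.9% of all genes. In MII oocytes against GV oocytes 4 of 8 were higher and 3 lower, against 39.3% and 30.6% of all genes. After rescaling to equal sums 3 were higher and 4 lower, against 24.9% and 44.0% of all genes. Fgfr1 moved from 1.04 to -0.0024.

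Markers of the Id, Nanos, PEA3, BCL6, LIM homeobox and UCH families were next set beside their relatives. Id4 was 0.0351% of the summed FPKM of the 4 Id genes in FGSCs. Id1 had 73.2 FPKM in E12.5 PGCs, 122 FPKM in FGSCs, 18.6 FPKM in GV oocytes and 1.49 FPKM in MII oocytes. Id2 had 75.4, 91.4, 28.5 and 2.70 FPKM, and Id3 had 185, 323, 177 and 10.8 FPKM in that order. The abundant Id transcripts of FGSCs were thus Id1, Id2 and Id3.

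In the Nanos family the 3 genes had different peaks. Nanos3, needed for the survival of PGCs, had 53.3 FPKM in E12.5 PGCs, 17.5 FPKM in FGSCs and 1.30 FPKM in GV oocytes, and was listed at 0 in MII oocytes. Nanos1 had 1.32, 0.216, 10.7 and 10.4 FPKM. The share of Nanos2 in the summed FPKM of the family was 0.0746% in E12.5 PGCs, 0.270% in FGSCs, 58.9% in GV oocytes and 90.8% in MII oocytes.

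In the PEA3 family, Etv4 followed Etv5 with 3.72 FPKM in E12.5 PGCs, 12.8 FPKM in FGSCs, 0.0159 FPKM in GV oocytes and 0.342 FPKM in MII oocytes. Etv1 had 8.69, 3.96, 0.340 and 122 FPKM, so Etv1 was the most abundant of the family in MII oocytes. Etv5 took 69.1% of the family's FPKM in FGSCs, against 41.0% in E12.5 PGCs. Bcl6, the relative of Bcl6b, had 1.95, 0.506, 1.87 and 4.99 FPKM. Among 8 LIM homeobox genes, Lhx9, which acts in the gonadal somatic epithelium, had 20.0, 30.9, 0.125 and 0.0154 FPKM, Lhx8, an oocyte factor, had 0.153, 0.169, 20.7 and 14.1 FPKM, and Lhx2 had 0, 0.784, 0.426 and 10.8 FPKM.

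Within the UCH deubiquitinases, Uchl1 took 3.95% of the summed FPKM in E12.5 PGCs, 23.3% in FGSCs, 95.5% in GV oocytes and 64.6% in MII oocytes. Uchl3 had 497, 95.0, 190 and 824 FPKM in that order and was the most abundant of them in E12.5 PGCs and FGSCs. Uchl5 had 60.3, 30.1, 12.2 and 11.6 FPKM, Bap1 had 5.32, 24.4, 22.4 and 14.0 FPKM, and Uchl4 had 0, 0.159, 10.7 and 0.178 FPKM.

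**Figure D3:**
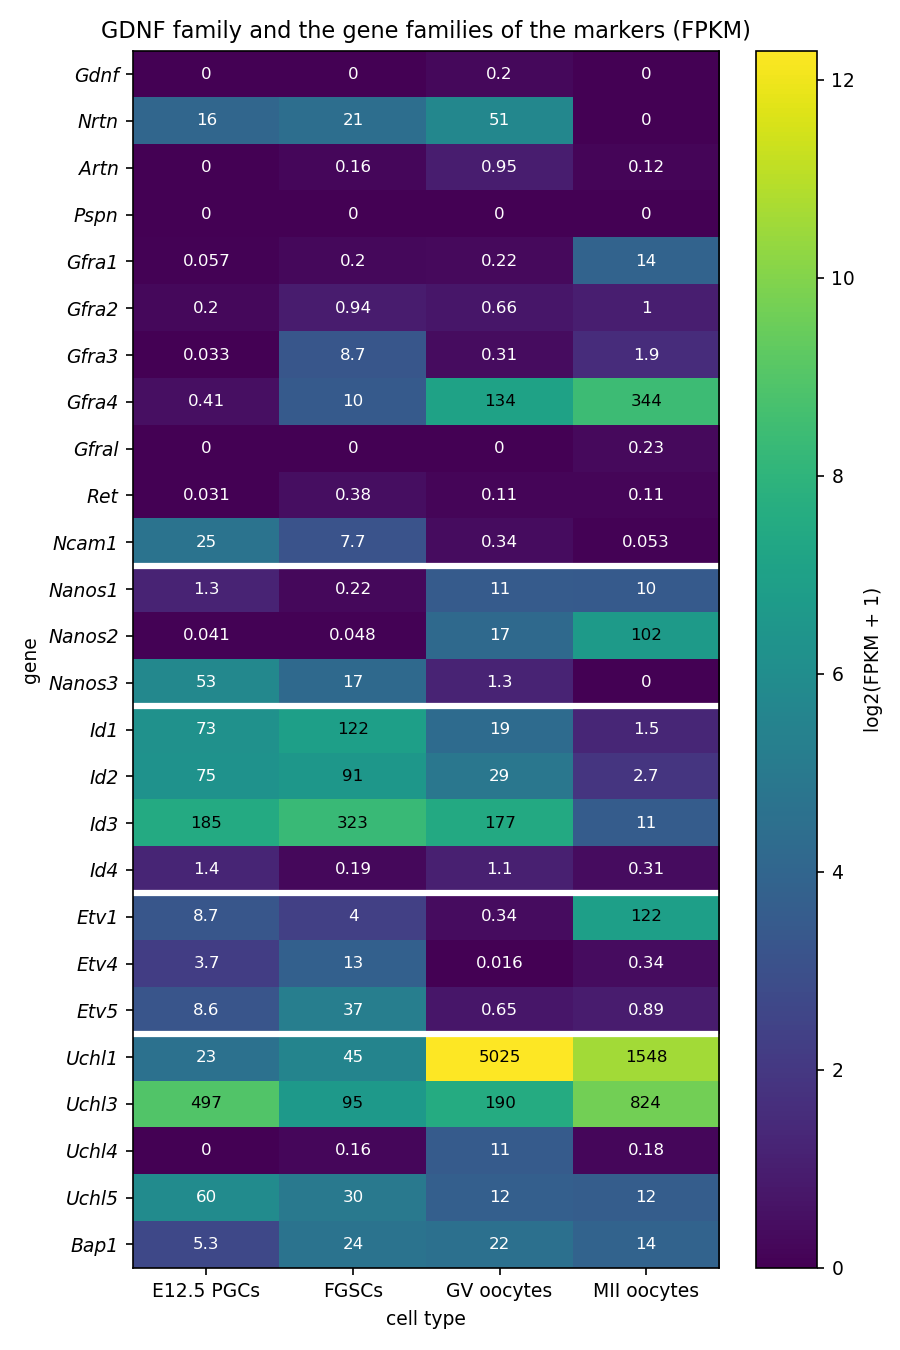
FPKM of the GDNF family ligands and receptors and of the Nanos, Id, PEA3 and UCH families in the 4 cell types, with colour for log2(FPKM + 1) and the FPKM printed in each cell. Gfra4, with 344 FPKM in MII oocytes, exceeds Gfra1, and Id4 is the lowest Id gene in every cell type.

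Of 28 other genes of undifferentiated spermatogonia, 19 passed in FGSCs against E12.5 PGCs, with 2 higher (Lin28a and Cdh1) and 6 lower (Sall4, Epcam, Rhox10, Piwil4, Bmi1 and Nanos3), the 2 Epcam and Nanos3 calls falling under 2-fold after rescaling to equal sums (-0.37 and -0.87). Of all genes, 24.6% were higher and 21.0% lower, or 38.9% and 10.1% after rescaling, when 3 of the 19 were higher and 4 lower. Utf1, a chromatin factor of pluripotent and germ cells, had 434 FPKM in E12.5 PGCs, 395 FPKM in FGSCs and 2.25 FPKM in GV oocytes, and was listed at 0 in MII oocytes. Sall4, a zinc finger partner of PLZF, had 189, 36.8, 55.2 and 449 FPKM, Bmi1, a Polycomb protein, had 8.63, 2.36, 13.5 and 329 FPKM, and the tetraspanin gene Cd9 had 80.1, 43.3, 244 and 163 FPKM. Of those that passed in GV oocytes against FGSCs, 11 of 21 were higher and 7 lower, with 28.1% and 27.9% of all genes. Of those in MII oocytes against GV oocytes, 8 of 20 were higher and 7 lower, with 39.3% and 30.6% of all genes. After rescaling to equal sums 7 were higher and 10 lower, with 24.9% and 44.0% of all genes.

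Of 10 genes of differentiating spermatogonia, 8 passed in FGSCs against E12.5 PGCs, with 2 higher (Rarg and Rec8) and 1 lower (Sycp3, -1.13, and -0.48 after rescaling to equal sums), with 24.6% of all genes higher and 21.0% lower. Kit, the receptor of stem cell factor, had 12.1, 11.2, 69.8 and 94.8 FPKM in the order of cell types above. Sohlh1 had 2.25, 2.34, 172 and 0.173 FPKM, Sohlh2 had 26.2, 28.4, 10.6 and 25.7 FPKM, and Sycp3, of the meiotic chromosome axis, had 21.6, 9.30, 79.9 and 88.0 FPKM. The count in GV oocytes against FGSCs was 4 of 9 higher and 3 lower, with 28.1% and 27.9% of all genes. The count in MII oocytes against GV oocytes was 2 of 8 higher and 3 lower, with 39.3% and 30.6% of all genes. After rescaling to equal sums it was 0 higher and 3 lower, with 24.9% and 44.0% of all genes. Sohlh2 and Dnmt3b no longer passed the limit on that scale (0.13 and 0.55).

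The genes whose levels were nearest to those of the 4 markers that reached 5 FPKM, by Euclidean distance over the 4 log2(FPKM + 1) values among 19278 genes, were Igf2bp1 (0.60) and Tsr1 (0.77) for Etv5, Cyp4v3 (0.16) and Cpvl (0.20) for Gfra1, Paqr6 (0.10) and Sebox (0.11) for Nanos2, and Tle6 (2.14) and Mtmr14 (3.18) for Uchl1. Igf2bp1, an RNA-binding protein, had 11.7, 42.4, 0.245 and 0.862 FPKM in the same order of cell types, beside the Etv5 values above. Sebox, an oocyte homeobox gene, had 0, 0, 18.1 and 102 FPKM, and Tle6, of the maternal subcortical complex, had 16.4, 35.9, 2004 and 518 FPKM. Uchl1 had no near neighbour on this measure. Each distance rests on 4 pooled values.

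The labels were checked against marker lists. Ddx4, whose promoter drove the reporter, had 64.0, 59.0, 31.9 and 17.2 FPKM in the same order of cell types, and Dazl had 34.2, 75.0, 82.6 and 900 FPKM. The 12 germ cell identity genes summed to 2132, 968, 4772 and 11716 FPKM, with Dppa3 at 1288 FPKM in E12.5 PGCs and 462 FPKM in FGSCs. In FGSCs against E12.5 PGCs 4 of the 12 were higher and 4 lower, where 24.6% and 21.0% of all genes were. The 4 lower calls (Dppa3, Ifitm3, Nanos3 and Tdrd1) fell under 2-fold after rescaling to equal sums. The summed FPKM of 10 oocyte genes was 18.2 in E12.5 PGCs, 17.4 in FGSCs, 10629 in GV oocytes and 29582 in MII oocytes. Somatic markers were present in both sorted populations. The 12 granulosa genes summed to 298 FPKM in FGSCs against 127 in E12.5 PGCs, with 6 of the 10 that passed higher and 0 lower, and the 12 endothelial genes to 144 against 117, with 4 of 11 higher and 0 lower. Of all genes, 24.6% were higher and 21.0% lower. The granulosa and endothelial counts are as deposited and were not taken after rescaling to equal sums. The shares of all genes on that scale, 38.9% and 10.1%, are therefore no background for them. The mesonephric and coelomic list, tissues in which Lhx1 and Lhx9 are also used, summed to 141 FPKM in FGSCs against 90.3 in E12.5 PGCs, with Pax8 at 10.6 against 1.28 FPKM. The 10 erythroid genes summed to 6328 FPKM in FGSCs against 16152 in E12.5 PGCs. The part of these cells in the Etv5, Lhx1, Bcl6b and Id4 values was not tested. For Thy1, the 10 genes of T cells and other leukocytes summed to 10.9 FPKM in FGSCs against 19.5 in E12.5 PGCs. Cd3e and Cd8a were listed at 0 in all 4 cell types and Ptprc did not exceed 0.0757 FPKM, but Cd2 had 3.93 FPKM in FGSCs against 16.3 in E12.5 PGCs, Csf1r had 1.19 against 3.17 FPKM and Lyz2 had 5.58 against 0.0401 FPKM. The 10 mesenchymal genes summed to 161 FPKM in FGSCs against 242 in E12.5 PGCs as deposited, with 1 higher and 3 lower. The 3 lower calls (Pdgfra, Col3a1 and Lum) fell under 2-fold after rescaling to equal sums (-0.89, -0.37 and -0.45). The direction of this list thus depends on the scaling. The part of both lists in the Thy1 values was not tested. In GV oocytes the granulosa list summed to 71.7 FPKM, of which Inha gave 43.6 FPKM, and the endothelial list to 19.3 FPKM. In MII oocytes they summed to 22.6 and 53.5 FPKM, of which Gata4 gave 15.7 FPKM and Pecam1 43.6 FPKM. In MII oocytes against GV oocytes 2 of 11 granulosa genes were higher and 7 lower. Of the endothelial genes 3 of 9 were higher and 4 lower, where 39.3% of all genes were higher and 30.6% lower. The higher calls of Gata4, Kitl and Sox17 fell under 2-fold after rescaling to equal sums (0.43, 0.55 and 0.52). The neural list, tissue in which Uchl1 and Gfra1 are also used, summed to 146 FPKM in GV oocytes and 723 FPKM in MII oocytes, of which Tubb3 gave 58.1 and 678 FPKM and Th 85.4 and 42.9 FPKM. Sox10 was at 0 in GV oocytes and 0.0318 FPKM in MII oocytes, and the part of such cells in the Uchl1 and Gfra1 values was not tested.

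**Figure D4:**
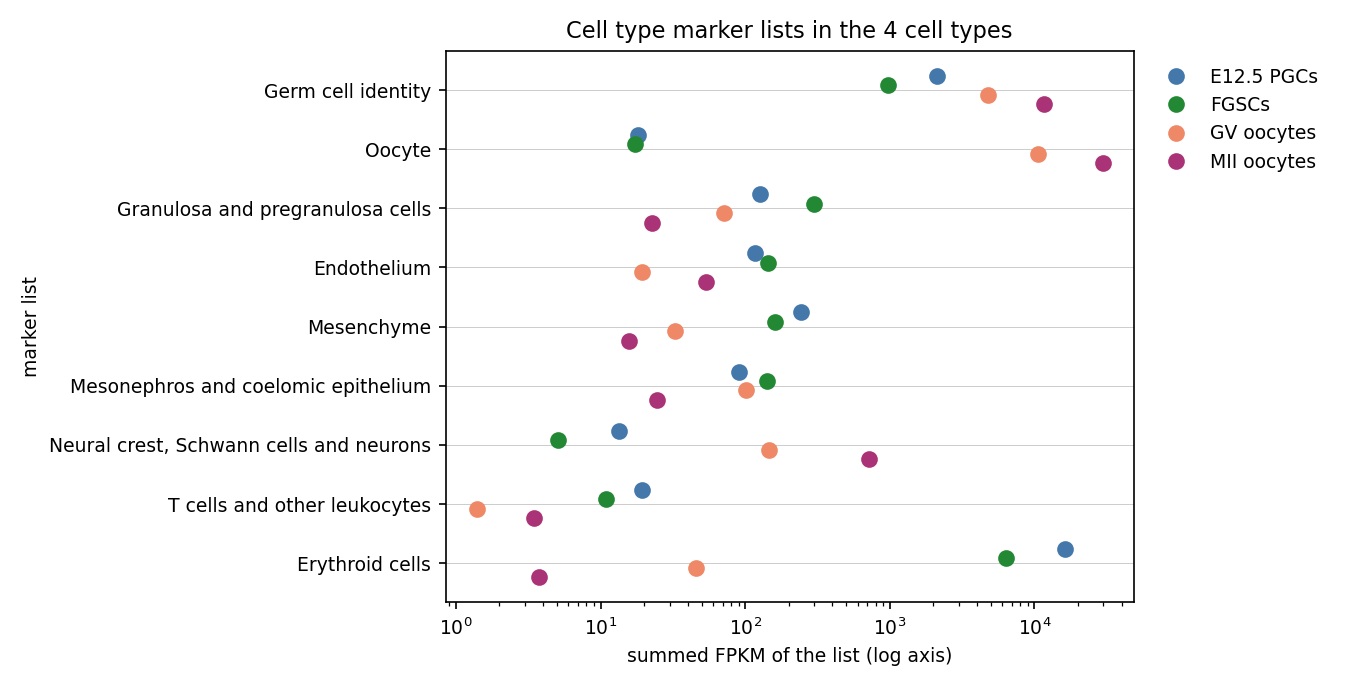
Summed FPKM (log axis) of 9 cell type marker lists in the 4 cell types, 1 point per list and cell type. Oocyte genes sum to 10629 FPKM in GV oocytes and 17.4 in FGSCs, and granulosa genes to 298 FPKM in FGSCs against 127 in E12.5 PGCs.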

How the data were processed

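RNA-seq of 9 libraries of 4 mouse germ cell types was used. The deposited values are FPKM, made by the authors. The submitters' processing notes name mm9, TopHat2 and Cufflinks 2.2.1, where the study's methods name mm10, RefSeq and Trimmomatic. The tables carry Ensembl identifiers and mm9 coordinates. Of 6 pairwise tables, each holds 1 pooled FPKM value per gene and cell type. Their columns of fold change, test statistic, p-value, q-value and significance hold the authors' own comparisons and were not used. Values of E12.5 PGCs and FGSCs were taken from the first table and those of GV and MII oocytes from the sixth, and 0 values differed between tables. For symbols on more than 1 row the row of highest maximum was kept. No counts are in these tables, so depth, counting intervals and replicate error could not be given.

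Ratios were computed as log2(FPKM + 1) with pandas 2.3.3 and numpy 2.4.6 in Python 3.11.15, for genes with at least 1 FPKM in one of the 2 cell types. Adding 1 understates the change of low genes. Alternatives changed the pseudocount, scaling, limit, filter, row choice and source table. The 10 markers and the 20 companion lists were chosen with earlier results of these data known. Named genes are the markers, the 4 most abundant genes of each companion signalling or spermatogonial list, all GDNF ligands and receptors, all members of the Id, Nanos, PEA3, BCL6 and UCH families, and the 2 genes nearest to each marker that reached 5 FPKM. Other names, among them the called genes listed in brackets, Lhx2, Lhx8, Lhx9 and the marker genes of other cell types, were added after their values were seen. Sequences are from RefSeq (GRCm38.p6) and GENCODE vM21, and no coordinate was converted between builds.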

Additional observations from a re-analysis of the deposited data

How the results depend on the processing

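The count of markers at 2-fold or more in FGSCs against E12.5 PGCs was 2 as given. It was 4 with a pseudocount of 0.1 FPKM (Etv5 and Lhx1 higher, Id4 and Thy1 lower), 1 with a pseudocount of 5 FPKM, 4 after rescaling to equal sums and 4 after scaling by the sum without the 100 highest genes (Etv5, Uchl1 and Lhx1 higher, Id4 lower in both), 5 at a 1.5-fold limit, 0 at a 4-fold limit, and 1 with a filter of 5 FPKM. The shares of all genes higher and lower moved too, from 24.6% and 21.0% as given. They were 28.2% and 25.0% with the pseudocount of 0.1 FPKM, and 8.70% and 11.3% with that of 5 FPKM. After rescaling to equal sums they were 38.9% and 10.1%, and after scaling without the 100 highest genes 36.7% and 12.0%. At the 1.5-fold limit they were 32.9% and 33.8%, at the 4-fold limit 7.63% and 3.85%, and with the 5 FPKM filter 19.9% and 24.8%. In GV oocytes against FGSCs the count was 4 and ranged from 3 to 5, and in MII oocytes against GV oocytes it was 3 and ranged from 2 to 4, over the same alternatives. Of all genes, 11.5% to 36.4% were higher and 9.62% to 38.3% lower in GV oocytes against FGSCs over all the alternatives. In MII oocytes against GV oocytes these shares were 15.7% to 46.3% and 12.2% to 44.0%. Of the markers' log2 ratios under each alternative, 187 stayed on their side of the limit, 20 passed it, 3 fell inside it (Id4 in FGSCs against E12.5 PGCs with a pseudocount of 5 FPKM and with the median ratio, Lhx1 in GV oocytes against FGSCs with a pseudocount of 5 FPKM) and none that passed the limit on either setting turned direction. Under the rescalings 8 of the 210 ratios changed sign, all of them under the limit, which were those of Gfra1 in GV oocytes against FGSCs and of Zbtb16 and Etv5 in MII oocytes against GV oocytes. The count of genes for GDNF signalling inside the cell at 2-fold or more in FGSCs against E12.5 PGCs was 5 as given and 11 after rescaling to equal sums. All of these were higher, where 24.6% of all genes were higher as given and 38.9% after rescaling.

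No paired analysis was possible because the tables hold 1 pooled value per cell type, and for the same reason no replicate was left out. The depth behind the markers under 1 FPKM is unknown, and their ratios are not read as changes.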
